A study of Homo sapiens and Mus musculus with 17 samples.

Results

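The genes described here are HSPA5 (BiP) and HSP90B1 (GRP94), the Hsp70 and Hsp90 chaperones of the endoplasmic reticulum (ER), and 6 of their partners, HYOU1, SIL1, SDF2L1, SDF2, MANF and CRELD2. They were taken by gene symbol from 2 tables of FPKM, and each table held a row for all of them, which makes 8 of 62714 human genes and 8 of 55491 mouse genes. FPKM relates a gene's fragments to the length of its transcript and to all fragments of the library, so levels of different genes can be compared within a library. All 8 genes passed the filter on low values in both tables, which left 15796 human and 12473 mouse genes for testing.

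The human table came from HEK293T, a line of embryonic kidney cells, in 9 cultures: 3 wild type (WT), 3 labelled HRD1 KO and 3 labelled SEL1L KO. The knockout lines were made with CRISPR/Cas9, and the WT cells carried the empty plasmid without a guide RNA. Whether each line was 1 clone was not given in the sources used here. The mouse table came from brown adipose tissue (BAT) of 8 C57BL/6J mice aged 12 weeks: 3 WT, 2 Hrd1 flox/flox; Ucp1-Cre (labelled Hrd1 KO) and 3 Sel1l flox/flox; Ucp1-Cre (labelled Sel1L KO). Ucp1-Cre deletes in brown adipocytes, while RNA of the whole tissue also holds that of other cells. In bulk tissue, fewer cells of a type and less RNA per cell cannot be told apart. Nothing in the labels says how separate the 3 cultures of a HEK293T group were, so p-values measure only the spread between these libraries.

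SEL1L and HRD1 (gene SYVN1) form a complex of the ER membrane that sends misfolded ER proteins to the cytosol for degradation. HSPA5 binds unfolded stretches of newly made ER proteins in cycles of ATP hydrolysis, and HSP90B1 takes over some of its clients. When unfolded proteins build up, the sensors ATF6, IRE1 (gene ERN1) and PERK (gene EIF2AK3) start the unfolded protein response (UPR), of which HSPA5 and HSP90B1 are textbook targets. HYOU1 and SIL1 release ADP from HSPA5 so that the cycle can start again. SDF2L1 and its paralog SDF2 sit in a complex with the J-domain protein DNAJB11, MANF binds the nucleotide-binding domain of HSPA5, and CRELD2 is an ER protein with disulfide isomerase motifs.

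Across the series, library depth could be estimated only relative to the other libraries of a table, and it varied 1.89 times in HEK293T and 1.75 times in BAT. SEL1L was at 1.82 to 3.36 FPKM in SEL1L KO cultures and at 4.39 to 12.9 in WT, while SYVN1 was at 18.5 to 22.5 in the cultures labelled HRD1 KO and at 16.7 to 16.9 in WT. In BAT, Syvn1 was at 13.8 and 14.1 FPKM in the mice labelled Hrd1 KO against 5.20 to 5.65 in WT, and Sel1l was at 25.2, 8.17 and 8.38 in Sel1L KO replicates 1, 2 and 3 against 9.10 to 12.9 in WT. The targeted mRNA was thus lower in every library only for SEL1L in HEK293T, so the other groups are named by their labels. Brown adipocyte markers summed to 16947 to 24639 FPKM in all BAT libraries, and all 5 markers set for HEK293T were above 1 FPKM in every culture. Sel1L KO replicate 1 stood apart, with Ppargc1a at 387 FPKM against 4.13 to 14.4 in the other BAT libraries, and results that rest on it are given with and without it. Hrd1 KO replicate 1 held more skeletal muscle RNA, with 5 muscle genes summing to 200.07 FPKM against 0.52 to 31.8 elsewhere. The values of other cell types in BAT stand beside the counts for that tissue.

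The promoters of these genes are shown first because 5 of the 8 hold stress-response elements that few promoters have. RefSeq windows of 300 bases (GRCh38.p14, 250 bases before to 50 after the start site) were searched on both strands for 3 combined elements: ERSE, which is CCAAT, 9 bases and CCACG; ERSE-II, which is ATTGG, 1 base and CCACG; and the UPR element TGACGTGG. ERSE was found in 0.0769% of 35116 windows, ERSE-II in 0.0541% and the UPR element in 0.729%. By themselves CCAAT and CCACG are common, in 34.6% and 38.1% of windows, and every ERSE and ERSE-II holds them. In the sequences below, read 5′ to 3′ on the strand of the gene, capitals mark the ends of ERSE and ERSE-II and the whole UPR element, and a match on the other strand appears as its reverse complement, which is CGTGG, 9 bases and ATTGG for ERSE and CGTGG, 1 base and CCAAT for ERSE-II. The whole HSPA5 window (chr9:125241294-125241593, minus strand) has 1 ERSE, from -66 to -48 relative to the start site:
HSPA5: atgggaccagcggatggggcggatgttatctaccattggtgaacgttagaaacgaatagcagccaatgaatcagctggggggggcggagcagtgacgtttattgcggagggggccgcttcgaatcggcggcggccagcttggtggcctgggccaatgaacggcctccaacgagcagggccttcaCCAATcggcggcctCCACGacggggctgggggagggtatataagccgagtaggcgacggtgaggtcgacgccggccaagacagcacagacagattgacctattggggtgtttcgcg

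For the other members with a combined element, the stretch around it is shown. HSP90B1 (window chr12:103930160-103930459, plus strand) has 2 ERSE, from -194 to -176 and, on the other strand, from -89 to -71. HYOU1 (window chr11:119057156-119057455, minus strand) has 2 ERSE-II, both on the other strand, from -185 to -175 and from -79 to -69, and the first overlaps a UPR element on the strand of the gene from -188 to -181. SDF2L1 (window chr22:21642052-21642351, plus strand) has 1 ERSE-II on the other strand from -188 to -178, and CRELD2 (window chr22:49918384-49918683, plus strand) has 1 ERSE on the other strand from -80 to -62.
HSP90B1: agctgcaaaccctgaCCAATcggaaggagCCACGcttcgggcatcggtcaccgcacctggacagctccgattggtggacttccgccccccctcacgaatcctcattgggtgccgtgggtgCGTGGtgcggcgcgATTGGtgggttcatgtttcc
HYOU1: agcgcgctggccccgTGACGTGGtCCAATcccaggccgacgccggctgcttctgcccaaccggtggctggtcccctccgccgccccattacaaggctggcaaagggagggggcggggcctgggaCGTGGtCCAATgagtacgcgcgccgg
SDF2L1: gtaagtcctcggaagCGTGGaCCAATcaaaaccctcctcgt
CRELD2: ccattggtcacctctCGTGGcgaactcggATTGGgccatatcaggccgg

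The MANF window had 3 CCAAT and 1 CCACG but none of the combined elements as spelled here, the SIL1 window had CCAAT alone, and of the 2 SDF2 windows only the second had a match, to CCACG. A match is a description of these letters and not evidence of binding.

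In HEK293T, mRNA of both chaperones was at higher levels in the knockout cultures than in WT. HSPA5 (chromosome 9, 125234853 to 125241382) was at 194, 369 and 158 FPKM in WT replicates 1, 2 and 3. The cultures labelled HRD1 KO had 1247, 2846 and 1068 FPKM, and the SEL1L KO cultures had 919.9, 1886 and 868. Every knockout culture was above every WT culture, and replicate 2 was the highest in each of the 3 groups. The mean was 7.16-fold the WT mean in HRD1 KO and 5.10-fold in SEL1L KO. On the log2(FPKM + 0.1) scale the differences from WT were 2.80 (SE 0.45, limma adjusted p = 0.126) and 2.35 (SE 0.45, adjusted p = 0.392), neither past the threshold of 0.05.

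The replicate numbers paired the HEK293T libraries, since libraries with the same number deviated from their group means together. With the replicate number as a block the SE of HSPA5 dropped to 0.10 at the same difference, and both contrasts passed the threshold (adjusted p = 1.0e-05 for HRD1 KO and 4.8e-05 for SEL1L KO). Taken number by number, HSPA5 was 6.43, 7.71 and 6.77 times WT in HRD1 KO replicates 1, 2 and 3. The matching ratios for SEL1L KO were 4.74, 5.11 and 5.50. For HSPA5 the ratio to WT varied less between numbers than its WT level, which differed 2.34 times between the lowest and highest culture. This did not hold for every member: the ratios of SDF2L1, MANF and CRELD2 varied more than their WT levels in both contrasts. The same was true of SDF2 in HRD1 KO and of HYOU1 in SEL1L KO.

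HSP90B1 (chromosome 12, 103930107 to 103953931) was at 338, 504 and 301 FPKM in WT, 1112, 1877 and 1393 in HRD1 KO and 867, 1251 and 1083 in SEL1L KO. Again no knockout culture overlapped WT, and replicate 2 was the highest of each group. It rose in HRD1 KO by 1.94 on the log2 scale (SE 0.26, adjusted p = 0.0345). The difference in SEL1L KO was 1.51 (SE 0.26, adjusted p = 0.253, and 0.00355 with the block). Its exons overlap those of UQCC6 on the opposite strand, which reached 34.1 FPKM at most; strandedness of the libraries was not given in the sources used here, so reads of overlapping genes cannot be told apart.

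Of the nucleotide exchange factors, HYOU1 was higher in both knockouts, and SIL1 overlapped WT in both. HYOU1 (chromosome 11, 119044188 to 119057227), a large relative of Hsp70 that also holds unfolded proteins, was at 44.4, 56.1 and 62.0 FPKM in WT, 143, 175 and 229 in HRD1 KO and 87.2, 114 and 179 in SEL1L KO. The log2 difference was 1.73 (SE 0.28, adjusted p = 0.126, with the block 0.00152) in HRD1 KO. In SEL1L KO it was 1.17 (SE 0.28, adjusted p = 1.00, with the block 0.0198). The groups did not overlap in either contrast. SIL1 (chromosome 5, 138946724 to 139293557) was at 21.0, 20.5 and 8.55 FPKM in WT, 28.9, 26.0 and 11.9 in HRD1 KO and 21.7, 18.7 and 10.3 in SEL1L KO. Replicate 3 was the lowest in every group, and the 3 groups overlapped. The difference of SIL1 from WT was 0.43 in HRD1 KO (95% interval -0.58 to 1.44) and 0.06 in SEL1L KO (-0.95 to 1.07). With the block the interval in HRD1 KO was 0.09 to 0.76, and SIL1 was 1.38, 1.27 and 1.40 times WT in replicates 1, 2 and 3, which did not pass (limma adjusted p = 0.703). The blocked interval in SEL1L KO was -0.27 to 0.39. SIL1 exons overlap those of MATR3 and SNHG4 on the opposite strand, which reached 45.2 and 75.2 FPKM.

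The paralogs SDF2L1 and SDF2 parted. SDF2L1 (chromosome 22, 21642302 to 21644299) was at 108, 145 and 108 FPKM in WT, 613, 386 and 345 in HRD1 KO and 375, 358 and 428 in SEL1L KO, with no overlap with WT. It rose in HRD1 KO by 1.86 (log2, SE 0.23, adjusted p = 0.0252). The SEL1L KO difference was 1.69 (SE 0.23, adjusted p = 0.0668, with the block 0.0328). SDF2 (chromosome 17, 28648346 to 28662189) was at 15.1, 17.9 and 19.4 FPKM in WT, 19.9, 14.7 and 14.6 in HRD1 KO and 16.2, 15.3 and 19.0 in SEL1L KO. The groups overlapped, and the differences of SDF2 were -0.10 (95% interval -0.56 to 0.37) and -0.05 (-0.52 to 0.41). The value for SEL1L KO turned to 0.0058 after scaling each library by its median ratio to the others.

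MANF (chromosome 3, 51385291 to 51389397), a small protein kept in the ER by a retrieval signal and secreted under stress, was at 151, 182 and 197 FPKM in WT. It was at 519, 504 and 509 in HRD1 KO, a spread of 7.63 FPKM (SD, n = 3), and at 671, 619 and 424 in SEL1L KO. MANF rose in both, by 1.54 (log2, SE 0.20, adjusted p = 0.0292) and by 1.67 (SE 0.20, adjusted p = 0.0224), and was the only member called in the SEL1L KO contrast without the block. CRELD2 (chromosome 22, 49918167 to 49927540) was at 49.1, 56.2 and 73.1 FPKM in WT, 152, 95.8 and 159 in HRD1 KO and 104, 84.2 and 199 in SEL1L KO. All 6 knockout cultures lay above WT, but the differences of 1.17 (SE 0.33, adjusted p = 1.00) and 1.04 (SE 0.33, adjusted p = 1.00) did not pass, and with the block the adjusted p were 0.11 and 0.269. CRELD2 exons overlap those of ALG12 on the opposite strand, which reached 20.5 FPKM.

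**Figure D1:**
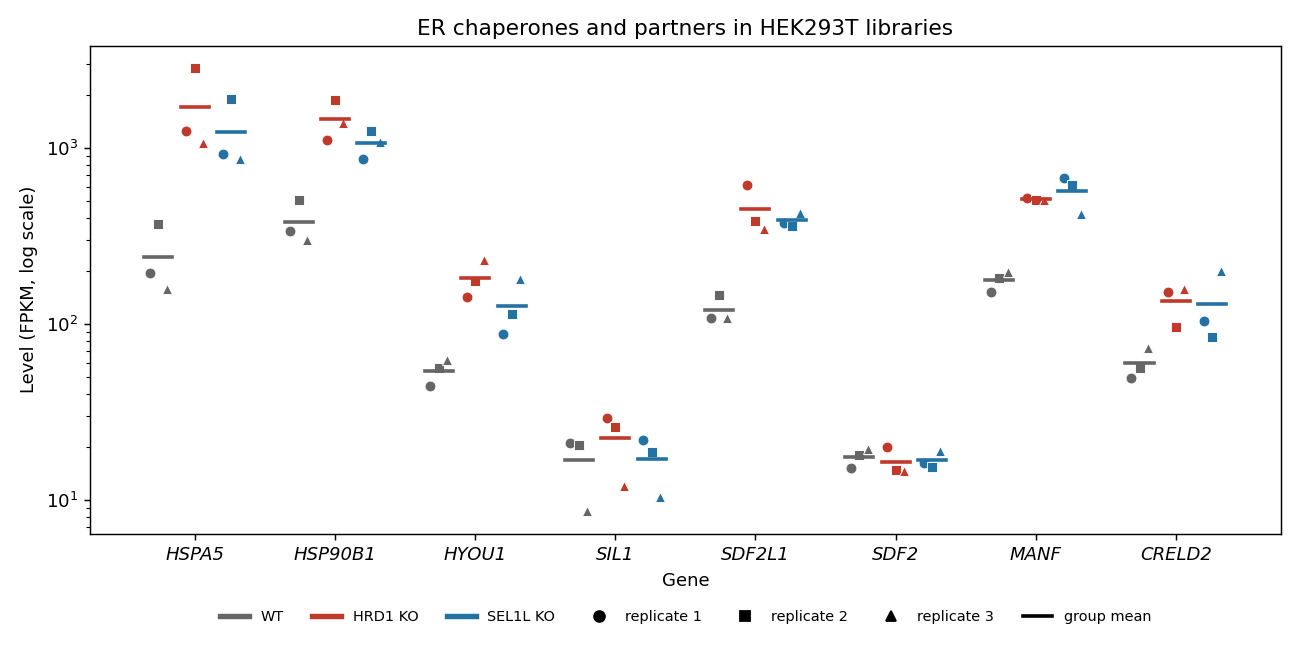
Levels of the 8 genes in the 9 HEK293T cultures (FPKM, log axis), with 1 point per culture, shaped by replicate number and coloured by group, and a bar at each group mean. HSPA5 ran from 158 to 369 in WT and from 868 to 2846 in the knockouts, while SDF2 stayed between 14.6 and 19.9 in all cultures.

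Counted together, 3 of the 8 genes rose in HRD1 KO (HSP90B1, SDF2L1 and MANF) and 1 in SEL1L KO (MANF), where 0.057% and 0.0317% of all genes tested were called higher. With the replicate block the count was 5 in each contrast (HSPA5, HSP90B1, HYOU1, SDF2L1 and MANF), against 0.152% and 0.076% of all genes. It was also 5 in each with median-ratio scaling and the block (0.165% and 0.0823%), and 2 in SEL1L KO after median-ratio or quantile scaling without it (0.038% each). By unadjusted p 6 genes were higher in each contrast, against 0.943% and 0.715% of all genes. In 6 of 8 genes every knockout culture was above every WT culture, in both contrasts, which held for 1.96% and 2.41% of all genes. The median log2 difference of the 8 was 1.64 in HRD1 KO and 1.34 in SEL1L KO, beside -0.05 and -0.06 over all genes. The 2 contrasts share their WT cultures. Any HEK293T count without the block depends on single cultures: leaving out each culture in turn left 0 to 2 genes called in either contrast.

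Between the knockouts, no member passed the test in HEK293T. The log2 difference of HRD1 KO from SEL1L KO was 0.56 for HYOU1 (95% interval -0.06 to 1.19), 0.44 for HSPA5 (-0.55 to 1.44) and 0.44 for HSP90B1 (-0.14 to 1.0). With the replicate block, the intervals were 0.25 to 0.87 for HYOU1, 0.21 to 0.68 for HSPA5 and 0.15 to 0.72 for HSP90B1, and SIL1 was at 0.37 (0.03 to 0.70). Number by number, HSPA5 was 1.36, 1.51 and 1.23 times its SEL1L KO level in HRD1 KO, HSP90B1 was 1.28, 1.5 and 1.29 times and HYOU1 was 1.64, 1.53 and 1.28 times. MANF was at -0.13 (-0.57 to 0.31, with the block -0.53 to 0.26) and above its SEL1L KO level in replicate 3 alone. By limma 0 of the 8 genes had an adjusted p under 0.05, with the block too (lowest 0.474). An unadjusted p under 0.05 was reached by 0 genes without the block and by 4 with it (HSPA5, HYOU1, HSP90B1 and SIL1), where 1.18% and 3.97% of all genes were higher by those rules. No member was higher in every HRD1 KO culture than in every SEL1L KO culture, against 2.67% of all genes, and 0% of all genes were called higher by adjusted p without the block.

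In BAT, Hspa5, Hsp90b1, Hyou1, Sil1, Sdf2l1, Manf and Creld2 were at higher levels in every knockout library than in every WT library. By contrast, the same held for 51.1% of all genes in Hrd1 KO and 17.7% in Sel1L KO. Only some of the members' differences passed the test. Hspa5 (chromosome 2 of GRCm38, 34771970 to 34777547) was at 123, 117 and 116 FPKM in WT, 897 and 1051 in the mice labelled Hrd1 KO and 3598, 674 and 596 in Sel1L KO replicates 1, 2 and 3. Sel1L KO replicate 1 was 5.67 times the mean of the other two. The log2 differences were 3.03 for Hrd1 KO (adjusted p = 0.0451) and 3.25 for Sel1L KO (adjusted p = 0.0524), which did not pass the threshold of 0.01 used for this table. Without Sel1L KO replicate 1 they were 3.03 (SE 0.12, adjusted p = 2.6e-05) and 2.42 (SE 0.12, adjusted p = 2.5e-04). All 3 groups share 1 estimate of the spread, which is why leaving out a Sel1L KO library changes the Hrd1 KO test.

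Hsp90b1 (chromosome 10, 86690209 to 86705509) was at 86.7, 80.2 and 81.5 FPKM in WT, 554 and 438 in Hrd1 KO and 2048, 393 and 363 in Sel1L KO. The knockouts again lay clear of WT. The differences were 2.57 (adjusted p = 0.0608) and 3.0 (adjusted p = 0.0610), and without Sel1L KO replicate 1 they were 2.57 (adjusted p = 8.3e-05) and 2.19 (adjusted p = 4.05e-04). Hyou1 (chromosome 9, 44379490 to 44392369) was at 18.4, 16.2 and 15.1 FPKM in WT, 78.7 and 111 in Hrd1 KO and 255, 56.7 and 44.8 in Sel1L KO. Its differences of 2.49 and 2.38 (adjusted p = 0.0621 and 0.0928) became 2.49 and 1.6 without that library (adjusted p = 5.8e-04 and 0.00823). After median-ratio scaling in addition, Hyou1 in Sel1L KO was at 1.43 and no longer passed (adjusted p = 0.0284).

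Sil1 was at 15.1, 12.9 and 16.2 FPKM in WT, 21.1 and 27.9 in Hrd1 KO and 20.7, 26.9 and 16.5 in Sel1L KO. Both knockouts lay above WT, the lowest Sel1L KO library by a small margin. The differences were 0.72 (95% interval 0.16 to 1.28, adjusted p = 0.109) and 0.51 (0.01 to 1.0), and after scaling 0.27 and 0.41, so neither was called. In contrast to the members that moved, Sil1 in Sel1L KO replicate 1 was 0.953 times the mean of replicates 2 and 3.

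Sdf2l1 (chromosome 16, 17130138 to 17132383) had the lowest WT level and the largest fold of the set. It was at 2.74, 1.90 and 1.68 FPKM in WT, 108 and 128 in Hrd1 KO and 346, 73.2 and 58.0 in Sel1L KO. The Hrd1 KO mean was 55.9-fold the WT mean, and in Sel1L KO replicates 2 and 3 the mean was 31.1-fold. Sdf2l1 rose by 5.76 in Hrd1 KO (log2, SE 0.66, adjusted p = 0.0075) and by 5.72 in Sel1L KO (SE 0.59, adjusted p = 0.0094). Both calls were lost after median-ratio scaling (adjusted p = 0.0325 and 0.0227), and both held without Sel1L KO replicate 1, at 5.76 and 4.91, also when scaled. Sdf2 (chromosome 11, 78245746 to 78255496) was at 24.8, 21.5 and 21.7 FPKM in WT, 26.2 and 29.2 in Hrd1 KO and 24.1, 23.5 and 20.5 in Sel1L KO. Sdf2 differed by 0.29 (95% interval -0.08 to 0.66) and 0.0022 (-0.33 to 0.34), which turned to -0.16 and -0.10 after scaling. Sdf2 exons overlap those of Supt6 on the opposite strand, at up to 25.4 FPKM.

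Manf (chromosome 9, 106838312 to 106891979) was at 39.5, 28.2 and 27.1 FPKM in WT, 343 and 484 in Hrd1 KO and 1327, 267 and 275 in Sel1L KO. Its differences were 3.71 (adjusted p = 0.0227) and 3.88 (adjusted p = 0.0316), and 3.71 and 3.12 without Sel1L KO replicate 1 (adjusted p = 1.3e-04 and 6.7e-04). Manf exons overlap those of Rbm15b on the same strand and of Dcaf1 on the other, which reached 39.5 and 14.1 FPKM. Creld2 (chromosome 15, 88819646 to 88826683) was at 6.34, 6.95 and 6.43 FPKM in WT, 42.7 and 80.3 in Hrd1 KO and 620.05, 38.4 and 20.5 in Sel1L KO. Creld2 was the most uneven member: in Sel1L KO replicate 1 it was 21.1 times the mean of replicates 2 and 3, where the other 5 members that moved were 4.89 to 5.67 times theirs. The differences were 3.14 and 3.56 (adjusted p = 0.141 and 0.148). Without that library Creld2 rose in Hrd1 KO by 3.14 (adjusted p = 0.00162), and the difference of 2.08 in Sel1L KO did not pass (adjusted p = 0.0193).

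**Figure D2:**
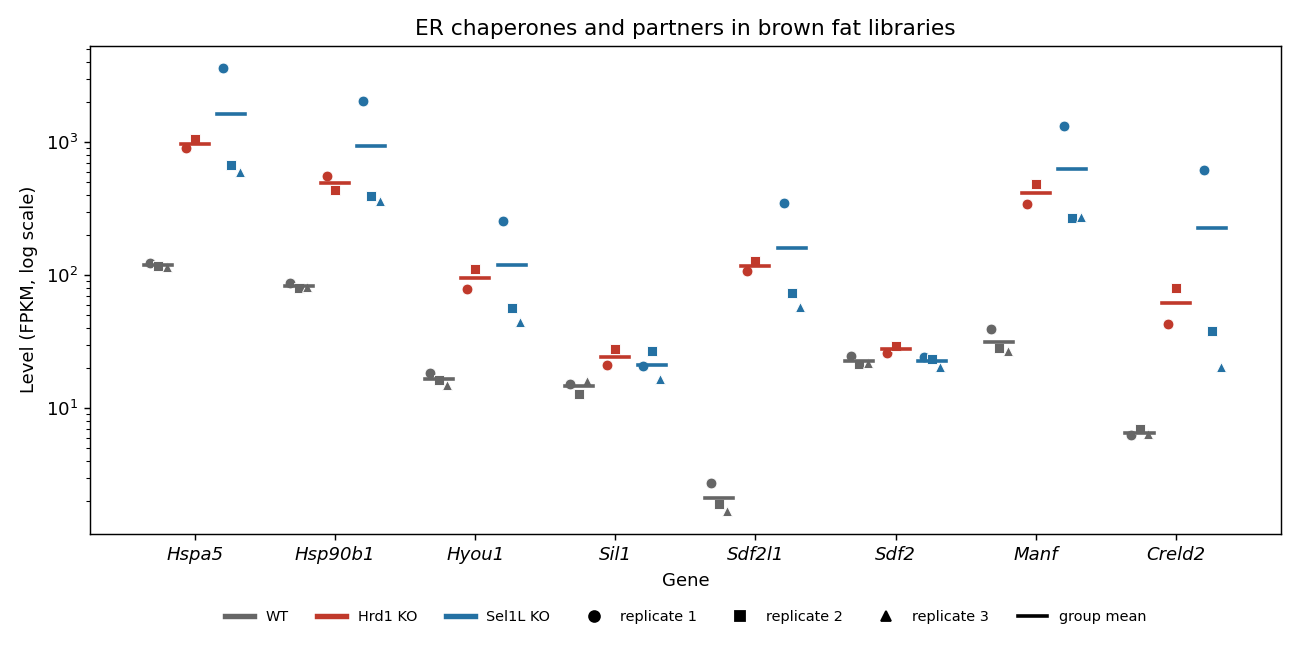
Levels of the 8 genes in the 8 BAT libraries (FPKM, log axis), with 1 point per mouse, shaped by replicate number and coloured by group, and a bar at each group mean. Sel1L KO replicate 1 (blue circle) lies apart in 6 genes, by 4.89 to 21.1 times the mean of replicates 2 and 3, and Sdf2l1 runs from 1.68 in WT to 346.

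As a count, 1 of the 8 genes (Sdf2l1) rose in each BAT contrast, where 0.289% of all genes rose in Hrd1 KO and 0.0882% in Sel1L KO. Without Sel1L KO replicate 1 the counts were 6 in Hrd1 KO, against 5.91% of all genes, and 5 in Sel1L KO (all but Sil1, Sdf2 and Creld2), against 0.398%. Leaving out any other single library took the counts to 0, except that without Sel1L KO replicate 3 the Hrd1 KO count was 1. By unadjusted p 7 genes were higher in each contrast, against 25.4% of all genes in Hrd1 KO and 12.7% in Sel1L KO. With Hrd1 KO and WT fitted alone 6 were called in Hrd1 KO, against 2.92% of all genes. Hrd1 KO libraries were higher than WT over most genes, with a median log2 difference of 0.42 over all genes tested and 0.09 for Sel1L KO. After median-ratio scaling it was -0.02 and -0.0022. On that scale the Hrd1 KO differences were 2.58 for Hspa5, 2.12 for Hsp90b1, 2.04 for Hyou1, 5.32 for Sdf2l1, 3.26 for Manf and 2.69 for Creld2. Scaled and without replicate 1, 6 genes in Hrd1 KO and 4 in Sel1L KO rose, beside 0.821% and 0.179% of all genes. The median difference of the 8 genes was 2.80 in Hrd1 KO and 3.13 in Sel1L KO, before scaling.

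Summed markers of several other cell types differed between the BAT groups as well. The 4 fibroblast and preadipocyte markers summed to 26.2 to 31.8 FPKM in WT, to 58.8 and 78.0 in the Hrd1 KO mice and to between 48.2 and 61.2 in the Sel1L KO mice. The 5 macrophage markers summed to 8.43 to 8.72 FPKM in WT, where the Hrd1 KO mice had 12.1 and 14.8 and the Sel1L KO mice 11.5 to 15.3. For the 4 plasma cell markers the sums were 1.56 to 4.87, 3.96 to 15.2 and 7.03 to 19.1 in that order, with Mzb1 and Tnfrsf17 at 0.42 and 0.19 FPKM at most and Mzb1 at 0 in every WT library. The 4 endothelial markers summed to 66.3 to 90.0 FPKM in WT, with 108.7 and 140.8 in the Hrd1 KO mice against 69.3 to 120.8 for the Sel1L label, and the 4 T and B cell markers to at most 4.47 in any library. Neither group overlapped WT in the fibroblast or macrophage sums. Sel1L KO did not overlap WT in the plasma cell sum, and Hrd1 KO did not in the endothelial and muscle sums. These sums were not scaled between libraries. Without scaling, 51.1% of all genes were higher in every Hrd1 KO library than in every WT library, and 17.7% in Sel1L KO. The 9 brown adipocyte markers summed to 22321 to 24639 FPKM in WT and to 16947 and 21935 in the Hrd1 KO mice. In the Sel1L KO mice they summed to 18013 at least and 22702 at most. The Hrd1 KO sums of these markers thus lay below WT without overlap, while the Sel1L KO sums overlapped WT. The part of these cell types in the results was not tested.

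All 8 genes had every Hrd1 KO library above every WT library, but so did 51.1% of all genes, and after scaling 6 of the 8 did, against 21.1%. In Sel1L KO 7 of 8 did, against 17.7%, and 6 after scaling, against 12.8%. The 2 contrasts share their WT mice. Between the knockouts 0 of 8 genes passed by limma (adjusted p) and 0 had an unadjusted p under 0.05, where 0.00802% of all genes were called higher and 0.0321% lower in Hrd1 KO and 15.5% were higher by unadjusted p. The sign of all 8 differences turned with the scaling or with Sel1L KO replicate 1: Hspa5 went from -0.22 to 0.62 without it.

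**Figure D3:**
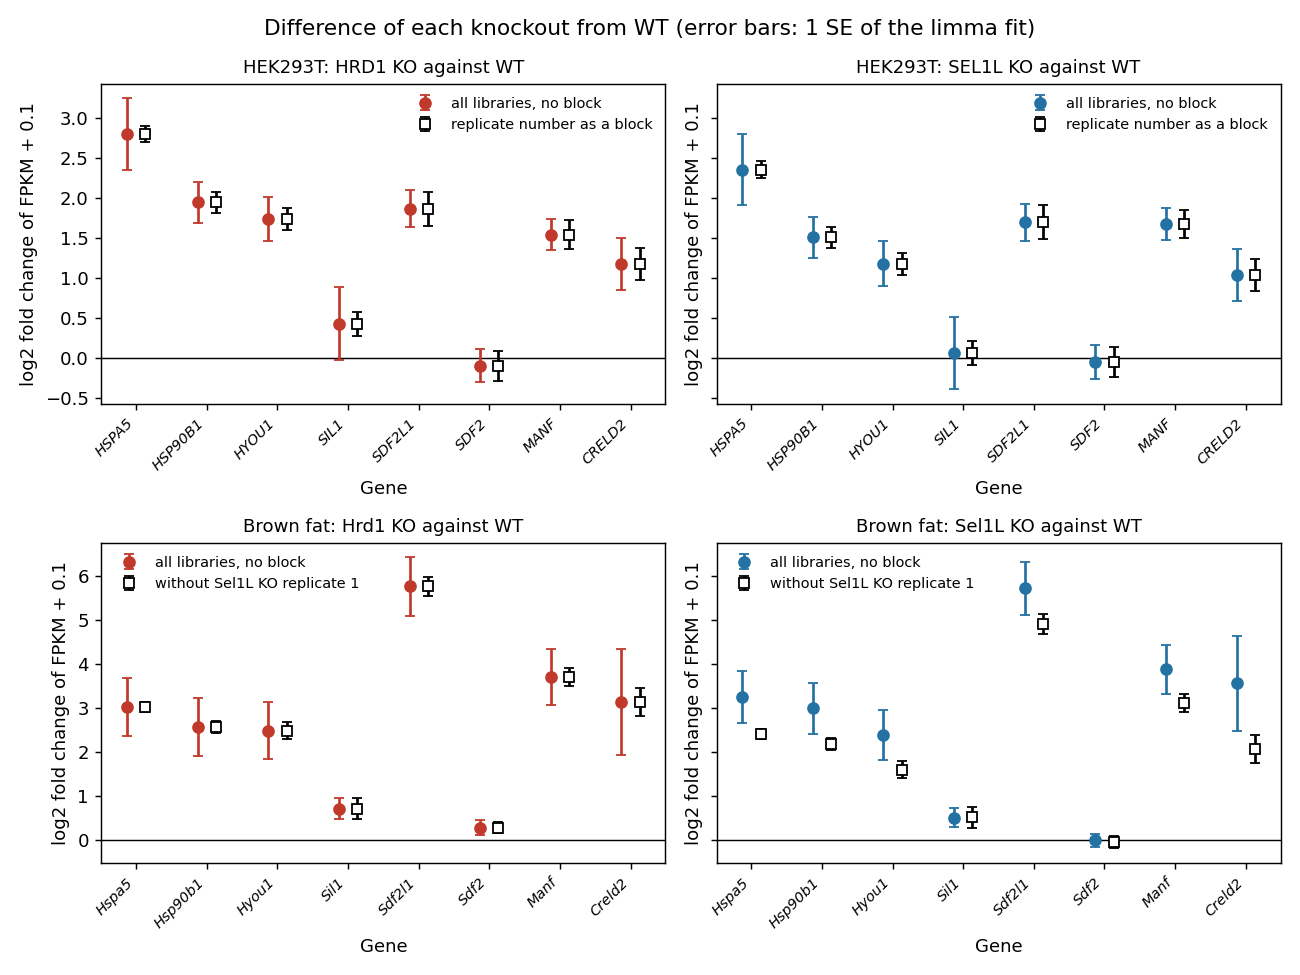
Log2 difference of each gene from WT in the 4 contrasts against WT, on the log2(FPKM + 0.1) scale, with bars of 1 SE. Filled points use all libraries without a block, and open squares use the replicate number as a block (HEK293T) or leave out Sel1L KO replicate 1 (BAT): the HSPA5 bar in HEK293T shrinks from 0.45 to 0.10, and Sdf2l1 reaches 5.76 in Hrd1 KO while Sdf2 is at 0.29.

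The set also changed in its make-up. The 8 genes took 0.0975% to 0.157% of the summed FPKM of HEK293T WT cultures. Their share was 0.380% to 0.671% in the HRD1 KO cultures and 0.317% to 0.493% in those of SEL1L KO. In BAT they took 0.0211% to 0.0241% in WT, 0.181% and 0.214% in Hrd1 KO and 0.674%, 0.119% and 0.106% in Sel1L KO. In HEK293T WT the mRNA of the Hsp90 was the more abundant, with a ratio of HSPA5 to HSP90B1 of 0.574, 0.732 and 0.524. That ratio was 1.12, 1.52 and 0.767 in HRD1 KO and 1.06, 1.51 and 0.802 in SEL1L KO, so each knockout culture was above WT but replicate 3 stayed under 1. In BAT, Hspa5 mRNA was the more abundant already in WT, at 1.42 to 1.46 times Hsp90b1. It was 1.62 and 2.40 times Hsp90b1 in Hrd1 KO and 1.64 to 1.76 times in Sel1L KO. These ratios are within a library and do not depend on how libraries are scaled.

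The ratio of the paralogs moved further than that of HSPA5 to HSP90B1. SDF2L1 was 5.59 to 8.12 times SDF2 in HEK293T WT and 22.6 to 30.8 times in the knockouts. In BAT of WT mice Sdf2 had the more abundant mRNA, with Sdf2l1 at 0.0773 to 0.11 times its level. The order was turned round in every knockout library, where Sdf2l1 was 2.83 to 14.3 times Sdf2. The HEK293T and BAT tables were normalized separately, and no level was set across them.

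**Figure D4:**
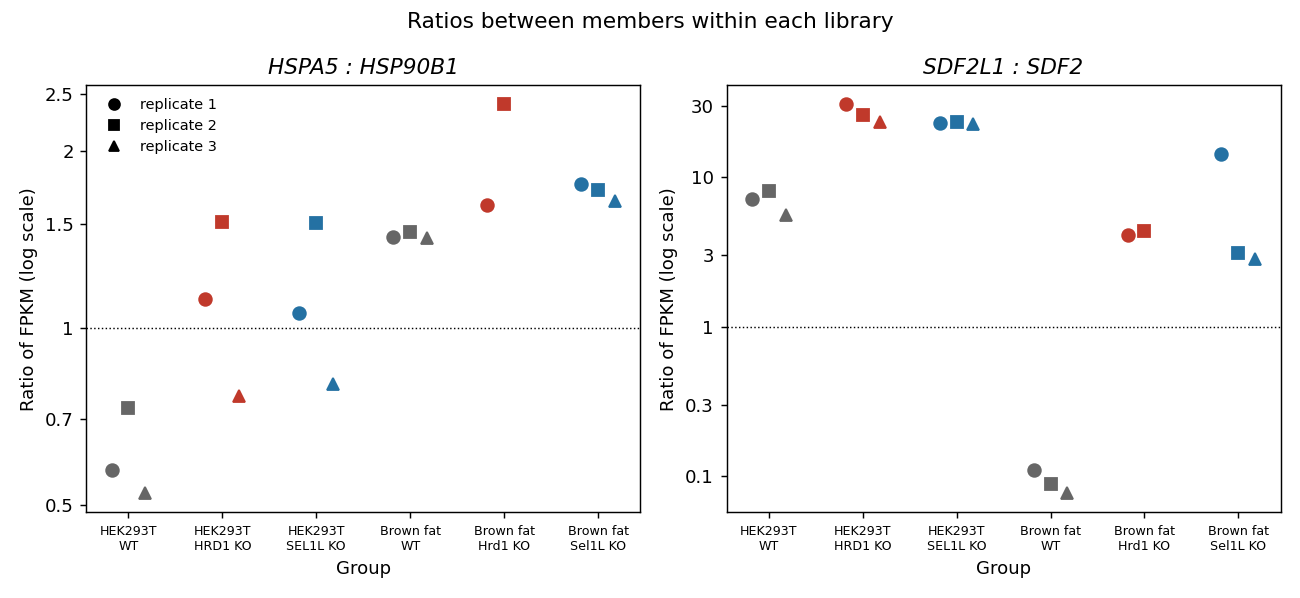
Ratio of HSPA5 to HSP90B1 (left) and of SDF2L1 to SDF2 (right) in FPKM within each library, on log axes, with 1 point per library shaped by replicate number, and a dotted line at 1. SDF2L1 to SDF2 is below 1 only in BAT of WT mice, at 0.0773 to 0.11.

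The genes whose pattern over libraries was most like that of HSPA5 were found by Pearson's r of log2(FPKM + 0.1). Over the 9 HEK293T cultures these were HERPUD1 (r = 0.991), COPA (0.974), SERP1 (0.941), PDIA4 (0.939) and PDIA6 (0.926). Of the members, HSP90B1 ranked 2 of all genes tested (r = 0.976), MANF 19, SDF2L1 21 and HYOU1 59, followed by CRELD2 at 452, SIL1 at 1189 and SDF2 at 13523 (r = -0.34). Over the 8 BAT libraries the genes outside the set were Mtmr4 (r = 0.996), Pdia3 (0.995), Ormdl2 (0.995), Sars (0.993) and Calr (0.993). Among members Hsp90b1 ranked 4 (r = 0.994), Manf 7, Hyou1 11, Sdf2l1 45 and Creld2 81, with Sil1 at 2255 and Sdf2 at 4380. Libraries of a group share their genotype, and in BAT 1 library carries much of each r, so these values describe likeness only.

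Further gene lists cover proteins around the ER chaperones and Hsp70 and Hsp90 outside the ER. Of 8 J-domain proteins of the ER, which hand clients to HSPA5 and start its ATP hydrolysis, 0 passed the test in any contrast with WT, with medians of 0.31 in HRD1 KO and 0.26 in SEL1L KO in HEK293T. By limma's unadjusted p under 0.05, 2 of the 8 were higher in each HEK293T contrast, 5 in Hrd1 KO and 3 in Sel1L KO. Of all genes, 0.943%, 0.715%, 25.4% and 12.7% were higher by that rule, in the order HRD1 KO and SEL1L KO in HEK293T, then Hrd1 KO and Sel1L KO in BAT. In HEK293T the highest were DNAJC3, at 1.33 and 1.26, and DNAJB11, at 0.96 and 0.80. With the block 2 of 8 rose in HRD1 KO (DNAJC3, limma adjusted p = 0.0459, and DNAJB11, 0.0445), against 0.152% of all genes. In SEL1L KO 0 rose with the block, against 0.076%. The median in BAT was 0.71 in Hrd1 KO and 0.63 in Sel1L KO, or 0.26 and 0.54 after scaling, with Dnajb11 at 1.91 and 2.09 and Dnajc3 at 1.65 and 1.63. Without Sel1L KO replicate 1, Dnajc3 and Dnajb11 rose in Hrd1 KO (limma adjusted p = 6.4e-04 and 0.00100), against 5.91% of all genes. In Sel1L KO 0 of 8 rose, against 0.398%. When scaled as well, Dnajc3 and Dnajb11 still rose in Hrd1 KO (limma adjusted p = 0.00407 and 0.00993), against 0.821%. DNAJB11 is the partner of SDF2L1 and SDF2, and its level in HEK293T WT was 43.4 to 63.9 FPKM, against 82.3 to 116 in the HRD1 KO cultures and 71.7 to 107 in the SEL1L KO cultures.

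Of 10 further accessory genes (retrieval receptors, the AMPylation enzyme FICD, canopy proteins, HSPA13 and the paralogs CDNF and CRELD1), 0 passed in either direction in any contrast with WT by limma. By unadjusted p 3 were higher in HRD1 KO and 0 in SEL1L KO in HEK293T, against 0.943% and 0.715% of all genes. In BAT 6 were higher in Hrd1 KO, against 25.4% of all genes, and 4 in Sel1L KO, against 12.7%. In the latter 1 was lower. The medians were 0.19 and 0.04 in HEK293T and 0.85 and 0.48 in BAT (0.40 and 0.39 after scaling), for HRD1 and SEL1L labels in turn. CRELD1, the paralog of CRELD2, had the largest value in HRD1 KO at 0.97, with FICD, which modifies HSPA5, at 0.72. In SEL1L KO the largest were KDELR3, at 1.06, and CRELD1, at 0.86. In BAT they were Kdelr3 and Kdelr2, receptors that return ER proteins from the Golgi, at 1.90 and 1.71 in Hrd1 KO and 0.99 and 1.20 in Sel1L KO. Without Sel1L KO replicate 1, 3 of 10 (Kdelr2, Creld1 and Cnpy3) rose in Hrd1 KO, against 5.91% of all genes. In Sel1L KO 0 of 10 rose, against 0.398%. When scaled as well, only Kdelr2 of these rose in Hrd1 KO, against 0.821%.

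Among 9 genes of the UPR (sensors, transcription factors and the proteases MBTPS1 and MBTPS2), 0 passed by limma in HEK293T, with medians of 0.13 and 0.14. By unadjusted p 0 were higher in HRD1 KO and 1 in SEL1L KO, against 0.943% and 0.715% of all genes. DDIT3, a transcription factor downstream of PERK, was at 0.82 and 1.14, and XBP1, the factor whose mRNA IRE1 splices, at 0.56 and 1.03. In BAT, Xbp1 rose in Hrd1 KO by 2.10 (SE 0.26, adjusted p = 0.00934), the only gene called of this list, where 6 of 9 were higher by unadjusted p, against 25.4% of all genes, and was at 1.65 after scaling (adjusted p = 0.0548). Sel1L KO had 0 called and 4 of 9 higher by unadjusted p, against 12.7% of all genes, with Ddit3 at 2.04 and Xbp1 at 1.57, and the medians of the list were 1.07 and 0.80, or 0.64 and 0.70 after scaling. Without Sel1L KO replicate 1, 5 of 9 rose in Hrd1 KO (Xbp1, Ddit3, Eif2ak3, Atf4 and Atf6), against 5.91% of all genes. In Sel1L KO 0 of 9 rose, against 0.398%. When scaled as well, none of the 5 passed in Hrd1 KO (limma adjusted p = 0.0148 to 0.0588).

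The 18 genes of the cytosolic and mitochondrial Hsp70 and Hsp90 system gave 0 calls by limma in HEK293T. It was 0 also by unadjusted p in both contrasts, where 0.943% and 0.715% of all genes were higher. Their medians in HEK293T were 0.03 and 0.06, beside the 1.64 and 1.34 of the ER set. The largest values there were HSPA2 at 0.56 and HSPA1A at -0.53 in HRD1 KO, and HSPA1A at -0.88 and BAG1 at -0.36 in SEL1L KO. HSPA1A and HSPA1B are nearly identical copies, so the split of reads between them is uncertain. In BAT the medians were 0.65 and 0.38 (0.20 and 0.29 after scaling), again with 0 calls, and by unadjusted p 10 were higher and 1 lower in Hrd1 KO and 8 higher and 1 lower in Sel1L KO, where 25.4% and 12.7% of all genes were higher. Hspa1a and Hspa1b, the stress-induced cytosolic Hsp70, were at 2.29 and 2.20 in Hrd1 KO. The Hrd1 KO mice were uneven, at 9.46 and 39.2 FPKM for Hspa1a and 12.6 and 67.55 for Hspa1b. WT reached 6.02 and 10.6 FPKM. Largest in Sel1L KO were Bag3 at 1.37 and Hsph1 at 0.90. Bag3 was at 118, 27.1 and 17.1 FPKM in Sel1L KO replicates 1, 2 and 3. Without Sel1L KO replicate 1, 2 of 18 (Hsp90aa1 and Hsph1) rose in Hrd1 KO, against 5.91% of all genes. Neither of them rose when scaled. In Sel1L KO 0 of 18 rose without that library, against 0.398%. The genes named in the last 4 lists for results without that library were chosen after their values were seen.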

How the data were processed

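Per the labels and the study's methods, polyA RNA was sequenced as paired-end reads, and the authors mapped reads with STAR 2.7.8a to GRCh38 (HEK293T) or GRCm38 (BAT). The deposited FPKM values, given to 2 decimals, are RSEM 1.3.3 estimates per gene and library. FPKM is not a count, so the total depth is unknown and the authors' DESeq2 test was not repeated. FPKM values of a library sum over all its genes, so an abundant gene lowers the rest, and mt-Atp8 took 11.9% to 18.7% of the sum in BAT. All 17 value columns were matched to samples by their labels.

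Each table was fitted separately with limma 3.58.1 (R 4.3.3) on log2(FPKM + 0.1), with its 3 groups in 1 model, a variance trend and Benjamini-Hochberg adjustment over genes that reached 1 FPKM in 3 or more HEK293T or 2 or more BAT libraries. Genes were called at an adjusted p under 0.05 in HEK293T and under 0.01 in BAT. The pseudocount understates changes of low genes. The fit was tested on simulated data. Same-numbered HEK293T libraries correlated in their deviations from the group means at 0.216 to 0.485 (9 pairs). The 18 pairs of unlike number were at -0.40 to 0.027. Deviations cancel out within a group, so positive values for like numbers push those for unlike numbers down, and the ranges are not independent. Libraries were paired by number on the same-number values, and what a number stands for was not given in the sources used here. No pair of libraries in a group looked like repeats of 1 library (at most 0.370% identical values).

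The members and gene lists were chosen with earlier results of these data known. Named genes are the 8 members, SEL1L and SYVN1, the called genes of each list (at most 4, or else the 2 largest differences) and the 5 genes most correlated with HSPA5. Alternatives were another pseudocount, no filter, 2 other normalizations, no trend, a replicate block, the 2 compared groups alone and each library left out. Protein features were not analysed here, nor were mouse promoters.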

Additional observations from a re-analysis of the deposited data

How the results depend on the processing

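The number of members called against WT turned on the setting, while the 6 members other than SIL1 and SDF2 kept a positive difference from WT in all 4 contrasts under all alternatives run. In the HEK293T HRD1 KO contrast, 3 genes were called, and the count was 6 by unadjusted p, 5 with the replicate block, with or without median-ratio scaling (the scaled block was added after seeing the data), 0 without the filter, without the trend or with the 2 groups alone, and 0 to 2 with a library left out. For SEL1L KO, 1 was called, and the count was 6 by unadjusted p, 5 with the replicate block, scaled or not, 2 after median-ratio or quantile scaling, 0 without the trend and 0 to 2 with a library left out. In BAT, where the replicate numbers do not pair the libraries (correlations of -0.06 to 0.08 for 7 same-number pairs), the replicate block left 0 called in both contrasts against WT, as did no filter, either scaling and no trend. The Hrd1 KO count was 7 by unadjusted p (25.4% of all genes were higher), 6 with the 2 groups alone (2.92%), 0 to 6 with a library left out and 6 without Sel1L KO replicate 1 when scaled (added after seeing the data). The Sel1L KO count was 7 by unadjusted p (12.7%), 0 with a pseudocount of 1 or the 2 groups alone, 0 to 5 with a library left out and 4 without its replicate 1 when scaled. Contrasts between the knockouts stayed at 0 under every alternative. The cause of these changes was not tested.

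Differences near 0 turned sign. In HEK293T SEL1L KO against WT, SDF2 was 0.0058 after median-ratio scaling with or without the replicate block, 0.0077 after quantile scaling and -0.15 to 0.028 with a library left out, and SIL1 was -0.36 to 0.38. Between the HEK293T knockouts, leaving out a library gave -0.081 to 0.33 for SDF2L1, -0.19 to 0.045 for SDF2 and -0.12 to 0.50 for CRELD2. Sdf2 in BAT was -0.16 (median-ratio), -0.065 (quantile) and -0.16 (scaled without Sel1L KO replicate 1) for Hrd1 KO against WT. For Sel1L KO against WT it was -0.10, -0.15 and -0.22 in that order, and -0.043 to 0.075 with a library left out. Between the BAT knockouts, median-ratio scaling gave -0.24 for Hyou1, -0.14 for Sil1, -0.31 for Sdf2l1 and -0.064 for Sdf2, quantile scaling -0.017 for Sil1 and -0.024 for Sdf2l1, and the replicate block -0.16 for Hyou1 and -0.27 for Sdf2l1. Scaled without Sel1L KO replicate 1, the values were 0.34 for Hspa5, 0.11 for Hsp90b1, -0.073 for Sil1, 0.31 for Manf and 0.78 for Creld2. Leaving out a library gave -0.37 to 0.89 for Hyou1, -0.44 to 0.85 for Sdf2l1, -0.57 to 0.59 for Manf, -1.40 to 1.06 for Creld2, -0.68 to 0.62 for Hspa5 and -0.86 to 0.38 for Hsp90b1. With 2 or 3 libraries a group and unknown total depth, small differences of SIL1 and SDF2 could not be resolved.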
